A study of Rattus norvegicus with 9 samples.

Results

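The expression of 58 genes that control entry from G1 into S phase or carry out DNA replication was examined in rat aortic smooth muscle cells (RASMC) with an inhibited Na+,K+-ATPase. The genes were listed by name, with earlier results of these data known. A gene counted as measured where the annotation of the array gave a probe set its symbol and no other, and this held for 52 of the 58, out of 14324 genes with such a probe set. The other 6 listed genes, *Ccnd3*, *Cdkn2d*, *Rbl1*, *Mcm3*, *Mcm4* and *Pole2*, are not analysed here. *E2f5* and *Rrm2* had 2 probe sets each and are represented by the one with the higher mean over all arrays. No filter on low signals was applied, so all 52 measured genes stayed in every count.

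RASMC were a purchased culture, made quiescent by 24 hr in medium with 0.2% fetal bovine serum. All cells, controls included, were washed with K+-free DMEM and then kept for 6 hr in one of 3 media: K+-free DMEM, which deprives the Na+,K+-ATPase of the extracellular ion it carries inward, DMEM with 3 mM ouabain, which blocks the same pump by binding its α subunit, or control DMEM. RNA of 3 independent experiments per medium was read on 9 Affymetrix arrays of the Rat Gene ST design. Within an experiment, control and treated cells were handled in parallel. Values are log2 signals, so a difference of 1 is a doubling.

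The array medians lay between 6.76 and 6.80, and arrays of one medium correlated at 0.9957 to 0.9984 over all probe sets. Smooth muscle markers went with the labelled cell type. All 7 measured of 8 listed, *Myh11*, *Lmod1* and *Myocd* among them, were above the array median on every array. *Acta2* had no probe set with a single symbol. All 5 measured endothelial markers, *Cdh5*, *Tek*, *Tie1*, *Emcn* and *Cldn5*, lay below the median everywhere. Of the 6 fibroblast markers, 3 were above it on all arrays (*Pdgfra*, *Lum*, *Col14a1*), and of the 7 macrophage markers, *Cd14* was. A signal above the median therefore does not by itself tell smooth muscle cells from fibroblasts. The summed linear signal of smooth muscle markers was 18700 to 19000 in K+-free medium, 16500 to 19100 in ouabain and 21200 to 21800 in control. That of fibroblast markers was 10300 to 11000 in K+-free medium, 9280 to 9710 in ouabain and 8040 to 8240 in control. Macrophage markers summed to 730 to 837 in K+-free medium, 1080 to 1150 in ouabain and 551 to 601 in control. Of these, *Ptprc*, *Adgre1*, *Csf1r*, *Lyz2* and *Cd163* lay below the array median throughout. *Cd68* was above it on the 6 treated arrays only, and higher than control by 1.92-fold in K+-free medium and 2.44-fold in ouabain. *Cd14* was higher by 1.35-fold and 2.42-fold. Endothelial markers summed to 270 to 285 in K+-free medium, 267 to 279 in ouabain and 242 to 254 in control. The part of these shifts in the results was not tested. In bulk RNA, fewer cells of a type and less RNA per cell cannot be told apart.

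In a resting cell, the pocket proteins p130 and Rb hold E2F transcription factors in check. D cyclins with Cdk4 and Cdk6, then E cyclins with Cdk2, phosphorylate the pocket proteins, which frees E2F to switch on the genes of DNA synthesis, while inhibitors such as p27 restrain the kinases. Origins are licensed in G1, when the origin recognition complex, Cdc6 and Cdt1 load the MCM helicase. They fire in S phase, when Cdc45 and the GINS complex join it and the polymerases, primase, clamp and clamp loader copy the DNA.

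Since E2F binding sites are the textbook promoter element of these genes, the promoters were searched for the E2F letters TTTCCCGC, TTTCGCGC, TTTGCCGC and TTTGGCGC on both strands. RefSeq promoter sequence on the rat build GRCr8, from 250 bases before to 50 after the gene start, was at hand for 41 of the 52 measured genes. The letters occurred in 17 of the 41 (41.5%), in 365 of 11806 genes with a single symbol on the array (3.09%) and in 618 of 27457 rat promoters of this length (2.25%). By role, they stood in 7 of 9 licensing and MCM genes, 2 of 3 pocket protein and E2F genes, 2 of 6 firing genes, 4 of 14 polymerase and fork genes and 1 of 3 genes each of the kinases and of nucleotide supply. Another cell cycle element, the CHR with the letters TTTGAA, was found in 5 of the 41 (12.2%). It was found in 15.2% of the 11806 genes with a single symbol on the array and in 18.1% of all rat promoters. Its letters share no site with those of E2F. The windows below, 5′ to 3′ on the strand of the gene, are shown because these 8 genes span the responses described next, and capitals mark the E2F letters or their reverse complement.
*Cdt1*, chr19:67529245-67529274, plus strand: ccgcgaaaattGCGCGAAAtccgcgggaag
*Gmnn*, chr17:40729854-40729883, plus strand: tctgcaggttcgggtcgtTTTGGCGCggtt
*Mcm2*, chr4:122918088-122918117, minus strand: tgacccggtTTTCGCGCGAAAacccgtggc
*Mcm5*, chr19:13488591-13488620, plus strand: gctcagaagTTTCGCGCCAAAacgtcccgc
*Mcm6*, chr13:42404471-42404500, minus strand: gcgtctgctTTTGGCGCGAAAttagcgtgt
*Mcm7*, chr12:22163212-22163241, minus strand: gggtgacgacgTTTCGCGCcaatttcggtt
*Orc5*, chr4:13440146-13440175, plus strand: cggggtagttaGCGGGAAAgcgcaggctgg
*Rfc3*, chr12:5836559-5836588, plus strand: gcagccTTTCGCGCtcGCGGGAAAactcgt

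In *Mcm2*, *Mcm5* and *Mcm6* the windows hold overlapping copies that read on both strands, and *Rfc3* has a pair 2 bases apart that points in opposite directions. The windows of *Cdt1*, *Rfc3* and *Mcm2* begin at -4, -9 and -23 from the gene start and run across it. Those of *Mcm7*, *Mcm6*, *Orc5* and *Mcm5* begin at -63, -148, -187 and -222 and lie before it, and that of *Gmnn* begins 20 bases into the transcribed part. *Cdt1*, *Mcm5* and *Mcm7* have 1 further copy each outside the printed window. A match is a run of letters and not a bound site, and the responses of these genes differed. *Cdt1* rose in both treatments and *Rfc3* and *Orc5* fell in both, *Mcm2*, *Mcm6* and *Gmnn* rose in ouabain without a call in K+-free medium, and *Mcm7* fell in K+-free medium without a call in ouabain. *Mcm5* passed neither comparison with control. These 8 were chosen and do not stand for all 41 promoters. In ouabain, the letters stood in 7 of 12 genes called higher, 2 of 11 called lower and 8 of 18 without a call. In K+-free medium, they stood in 3 of 7 called higher, 7 of 22 called lower and 7 of 12 without a call. A link between letters and response was not tested.

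A change was called at a Benjamini-Hochberg adjusted p under 0.05 over all 27342 probe sets with limma and a fold above 1.2. In K+-free medium, 12 of the 52 genes rose and 22 fell (23.1% and 42.3%), where 16.1% of all probe sets rose and 17.9% fell. In ouabain, 18 rose and 11 fell (34.6% and 21.2%), against 15.8% and 16.8% of all probe sets. Of the 14324 genes with a single symbol, 17.8% rose and 24% fell in K+-free medium. In ouabain, 17.5% of them rose and 22.7% fell, so the 21.2% that fell among the 52 was near that share. The median change was -0.16 in K+-free medium and 0.07 in ouabain, beside 0.05 and 0.06 over the 14324 genes. Single genes ranged from -2.03 (*Rbl2*) to 1.54 (*Cdt1*) in K+-free medium and from -1.43 (*Orc5*) to 1.61 (*Cdt1*) in ouabain. The standard error of a change lay between 0.0458 (*Cdk6*) and 0.128 (*Orc4*). The arrays of K+-free medium and control did not overlap for 44 of the 52 genes (84.6%, all probe sets 57.1%, the 14324 genes 65.6%). The arrays of ouabain and control did not overlap for 41 (78.8%, all probe sets 54.2%, the 14324 genes 63.1%). Both comparisons use the same 3 control arrays. With 3 arrays per medium, the number of arrays limits the precision, and an exact permutation test of 1 gene cannot go below p = 0.1. When every array was centred on *B2m*, the reference gene of the study's RT-PCR, the split in ouabain became 14 higher and 16 lower with a median of -0.08, and in K+-free medium 10 higher and 28 lower. Of all 27342 probe sets, this centring called 2166 higher and 6223 lower in ouabain, and 2375 and 7059 in K+-free medium. Repeated quantile normalization instead gave 20 higher and 11 lower of the 52 in ouabain. In K+-free medium it gave 13 higher and 16 lower, with a median of -0.02. Of all probe sets it called 4634 higher and 4241 lower in ouabain, and 4596 and 4679 in K+-free medium. *B2m* itself was higher than control by 0.16 in K+-free medium and 0.15 in ouabain (limma adjusted p = 0.0129 and 0.0163), under the fold limit. Centring on it therefore lowers every change against control by these amounts, here and wherever *B2m* is named below.

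**Figure D1:**
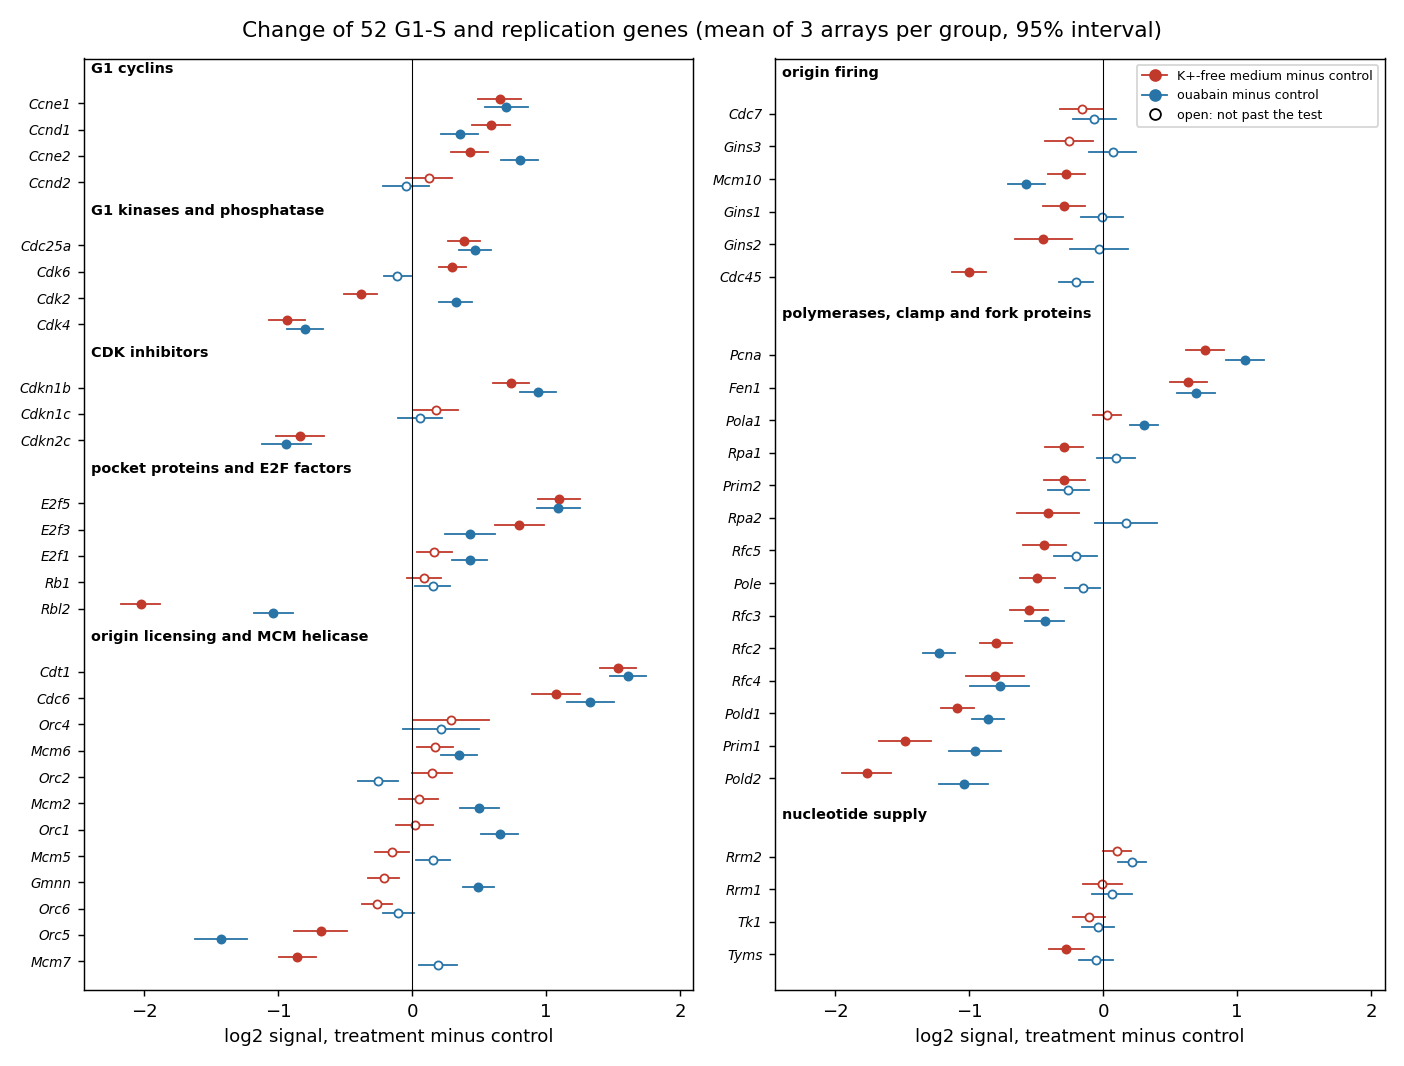
Change of each of the 52 measured genes, as log2 signal in K+-free medium minus control (red) and ouabain minus control (blue), with 95% intervals from limma over 3 arrays per medium, in rows by role. Filled points passed the test; *Cdt1* lies farthest to the right in both treatments, and *Rbl2* farthest to the left in K+-free medium.

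The plot of changes by gene shows the order within each role. Cyclins, E2F factors and the loading factors stood mostly to the right of 0, and most polymerase, primase and clamp loader subunits to the left. Of the 52, 11 rose in both treatments (*Ccnd1*, *Ccne1*, *Ccne2*, *Cdc25a*, *Cdkn1b*, *E2f3*, *E2f5*, *Cdc6*, *Cdt1*, *Pcna*, *Fen1*) and 11 fell in both (*Cdk4*, *Cdkn2c*, *Rbl2*, *Orc5*, *Mcm10*, *Rfc2*, *Rfc3*, *Rfc4*, *Pold1*, *Pold2*, *Prim1*). *Cdk2* was called in opposite directions, and 12 genes passed neither comparison. The share of all genes with the same call in both treatments was not counted. The comparisons share their control arrays, and the study reports many transcripts altered by both treatments. These counts therefore describe the list and do not set it apart from other genes.

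Among the G1 cyclins, which activate the first kinases of the cycle, 3 of the 4 measured rose in both treatments (75%) and none fell. Of the 14324 genes, 17.8% rose in K+-free medium and 17.5% in ouabain. *Ccne1*, cyclin E1, read 9.66, 9.46 and 9.53 in K+-free medium, 9.58, 9.65 and 9.57 in ouabain and 8.94, 8.99 and 8.76 in control. All treated arrays lay above all control arrays, by 1.57-fold in K+-free medium and 1.63-fold in ouabain (limma adjusted p = 1.74e-05 and 1.04e-05). *Ccne2*, cyclin E2, read 9.63, 9.55 and 9.63 in K+-free medium, 9.98, 9.88 and 10.08 in ouabain and 9.18, 9.11 and 9.24 in control. The 3 groups did not overlap: it rose 1.35-fold in K+-free medium and 1.75-fold in ouabain (adjusted p = 0.000177 and 1.25e-06), and the gap between the treatments also passed (-0.37, adjusted p = 0.00126). *Ccnd1*, cyclin D1, the partner of Cdk4 and Cdk6, read 12.55, 12.62 and 12.53 in K+-free medium, 12.33, 12.43 and 12.25 in ouabain and 12.04, 12.01 and 11.89 in control. Its rise was 1.5-fold in K+-free medium and 1.28-fold in ouabain (adjusted p = 1.41e-05 and 0.00078), with treated arrays above control throughout. The ouabain rise of *Ccnd1* dropped to 0.20 on the log2 scale and lost its call after centring on *B2m*. *Ccnd2*, cyclin D2, read 10.43, 10.52 and 10.26 in K+-free medium, 10.17, 10.37 and 10.14 in ouabain and 10.32, 10.27 and 10.23 in control. These ranges overlapped, with changes of 0.13 in K+-free medium and -0.05 in ouabain (adjusted p = 0.208 and 0.66).

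The kinases these cyclins activate moved separately from one another. *Cdk4*, the kinase of the D cyclins, read 12.20, 12.20 and 12.14 in K+-free medium, 12.31, 12.43 and 12.21 in ouabain and 13.11, 13.14 and 13.10 in control. It fell 1.91-fold in K+-free medium and 1.74-fold in ouabain (adjusted p = 2.62e-07 and 1.01e-06), far outside the spread of the control arrays. *Cdk6*, the other kinase of D cyclins, read 11.46, 11.42 and 11.44 in K+-free medium, 11.00, 11.06 and 11.02 in ouabain and 11.13, 11.15 and 11.12 in control. It rose 1.23-fold in K+-free medium (adjusted p = 0.000227), while in ouabain all arrays were lower than control by a difference, -0.11, that missed the test (adjusted p = 0.0731). The rise of *Cdk6* lost its call after repeated quantile normalization (0.22) and after centring on *B2m* (0.14). *Cdk2*, the kinase of E cyclins, read 9.50, 9.39 and 9.48 in K+-free medium, 10.11, 10.23 and 10.17 in ouabain and 9.87, 9.87 and 9.79 in control. It fell 1.3-fold in K+-free medium and rose 1.25-fold in ouabain (adjusted p = 0.000161 and 0.000598), with no overlap between any of the 3 groups, and its rise in ouabain lost its call after centring on *B2m* (0.17). *Cdc25a*, the phosphatase that removes the inhibitory phosphate from Cdk2, read 9.87, 9.84 and 9.87 in K+-free medium, 9.96, 9.86 and 10.01 in ouabain and 9.46, 9.46 and 9.49 in control. It rose 1.31-fold in K+-free medium and 1.39-fold in ouabain (adjusted p = 9.79e-05 and 2.25e-05), but its call in K+-free medium was lost after centring on *B2m* (0.23).

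Of the 3 measured CDK inhibitors, 1 rose and 1 fell in both treatments (33.3% each). Over the 14324 genes, 17.8% rose and 24% fell in K+-free medium, and 17.5% rose and 22.7% fell in ouabain. *Cdkn1b*, which encodes p27, an inhibitor of cyclin E-Cdk2 abundant in resting cells, read 10.76, 10.63 and 10.69 in K+-free medium, 10.91, 10.97 and 10.81 in ouabain and 10.02, 9.94 and 9.91 in control. All treated arrays were above control, by 1.67-fold in K+-free medium and 1.92-fold in ouabain (adjusted p = 1.64e-06 and 2.71e-07). *Cdkn2c*, p18, an inhibitor of Cdk4 and Cdk6, read 8.76, 8.66 and 8.58 in K+-free medium, 8.50, 8.53 and 8.67 in ouabain and 9.67, 9.40 and 9.44 in control. It fell 1.79-fold in K+-free medium and 1.92-fold in ouabain (adjusted p = 6.48e-06 and 2.87e-06). *Cdkn1c*, p57, read 6.73, 6.55 and 6.65 in K+-free medium, 6.54, 6.39 and 6.63 in ouabain and 6.42, 6.43 and 6.54 in control, below the array median on all 9 arrays, and passed no test.

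In the pocket protein and E2F group, 1 pocket protein fell and the E2F factors rose or missed the call. *Rbl2*, which encodes p130, the pocket protein that holds E2F target genes silent in quiescent cells, read 8.08, 7.95 and 8.01 in K+-free medium, 9.0, 8.89 and 9.11 in ouabain and 10.09, 9.99 and 10.03 in control. The groups stood about 1 log2 unit apart without overlap: the fall was 4.07-fold in K+-free medium (95% interval of the log2 change -2.17 to -1.88) and 2.05-fold in ouabain (-1.18 to -0.89), with adjusted p = 1.77e-09 and 2.3e-07. *Rbl2* and *Pold2* are also in the study's list of strongly decreased genes, which was drawn from these same arrays and so is not independent evidence. *Rb1*, the retinoblastoma protein gene, differed from control by 0.09 in K+-free medium and 0.15 in ouabain (adjusted p = 0.227 and 0.051). *E2f5*, an E2F factor that represses its targets together with p130, read 11.62, 11.68 and 11.60 in K+-free medium, 11.55, 11.63 and 11.71 in ouabain and 10.56, 10.65 and 10.39 in control. It rose 2.14-fold in K+-free medium and 2.13-fold in ouabain (adjusted p = 2.53e-07 and 3.08e-07), and its other probe set also rose (log2 changes 0.90 in K+-free medium and 0.91 in ouabain). *E2f3*, an activating factor, read 10.67, 10.46 and 10.82 in K+-free medium, 10.29, 10.23 and 10.34 in ouabain and 9.79, 9.86 and 9.90 in control. Its rise was 1.74-fold in K+-free medium and 1.35-fold in ouabain (adjusted p = 1.15e-05 and 0.00142), with no overlap among the 3 groups. *E2f1*, the activating factor that itself is an E2F target, read 8.08, 8.09 and 8.18 in K+-free medium, 8.29, 8.47 and 8.38 in ouabain and 7.97, 7.95 and 7.93 in control. All treated arrays were above control, but only the ouabain rise of 1.35-fold passed (adjusted p = 0.000109), since 0.17 in K+-free medium lay under the fold limit (adjusted p = 0.0402), though it was 0.36 and called after repeated quantile normalization.

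**Figure D2:**
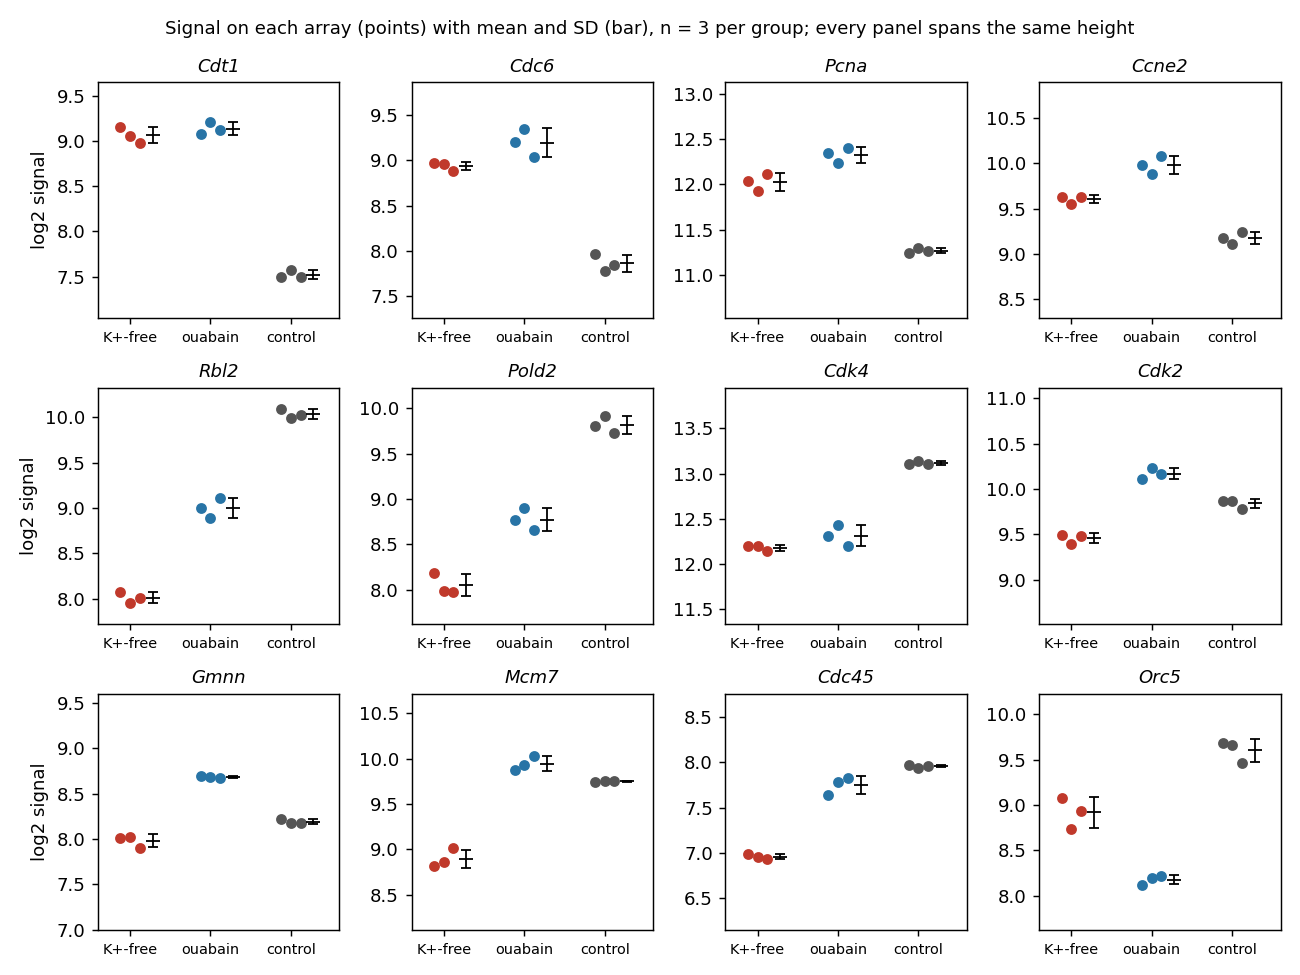
Log2 signal of 12 of the genes on every array, in K+-free medium, ouabain and control, with the mean and SD of the 3 arrays beside the points. The panels span the same height, so the gap of *Rbl2* between K+-free medium and control is the widest, and *Cdk2*, *Gmnn* and *Mcm7* show K+-free arrays below control and ouabain arrays above it.

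The factors that load the MCM helicase onto origins, *Cdt1* and *Cdc6*, rose in both treatments. *Cdt1*, which brings the MCM complex to origins, read 9.15, 9.05 and 8.98 in K+-free medium, 9.07, 9.21 and 9.12 in ouabain and 7.5, 7.58 and 7.5 in control. This rise, 2.90-fold in K+-free medium and 3.05-fold in ouabain, was the largest of the 52 genes in each treatment (adjusted p = 6.99e-09 and 7.29e-09), and the treatments differed by -0.07 with a 95% interval of -0.21 to 0.06. *Cdc6*, its partner in loading, read 8.97, 8.96 and 8.88 in K+-free medium, 9.21, 9.34 and 9.03 in ouabain and 7.96, 7.78 and 7.84 in control. It rose 2.11-fold in K+-free medium and 2.52-fold in ouabain (adjusted p = 6.97e-07 and 1.56e-07). The panels of single arrays show both genes with treated arrays at least 1 log2 unit above the controls in the mean.

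The inhibitor of Cdt1 did not follow it in both treatments. *Gmnn*, geminin, read 8.01, 8.03 and 7.90 in K+-free medium, 8.70, 8.68 and 8.68 in ouabain and 8.22, 8.17 and 8.18 in control. It rose 1.41-fold in ouabain (adjusted p = 1.22e-05), whereas in K+-free medium all arrays lay below control by 0.21, a difference with adjusted p = 0.006 but a fold of 1.16, under the limit. *Orc1*, the subunit of the origin recognition complex whose level varies in the cycle, read 7.28, 7.19 and 7.25 in K+-free medium, 7.90, 7.76 and 7.96 in ouabain and 7.26, 7.23 and 7.17 in control. It rose 1.57-fold in ouabain (adjusted p = 6e-06), and K+-free arrays overlapped with control. *Orc5*, a core subunit of the complex, read 9.08, 8.74 and 8.94 in K+-free medium, 8.12, 8.2 and 8.21 in ouabain and 9.68, 9.66 and 9.46 in control. It fell 1.60-fold in K+-free medium and 2.69-fold in ouabain (adjusted p = 6.43e-05 and 1.95e-07), the only one called lower of the 5 subunits measured among the 52 genes. *Orc2*, *Orc4* and *Orc6* passed neither comparison with control, with changes of 0.15, 0.29 and -0.26 in K+-free medium and -0.26, 0.22 and -0.10 in ouabain. Leaving out the 2nd array of K+-free medium brought *Orc4* to 0.40 (adjusted p = 0.0287), a call, and leaving out the 2nd of ouabain brought its change there to 0.37 (adjusted p = 0.0161). After centring on *B2m*, *Orc2* was called lower in ouabain (-0.41), and *Orc6* (-0.42) and *Gmnn* (-0.37) were called lower in K+-free medium. *Orc2* was also called lower in ouabain without the 1st control array (-0.28) or the 3rd of ouabain (-0.29), and *Orc6* in K+-free medium without its 3rd array (-0.29).

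The 4 measured subunits of the MCM helicase split by treatment. *Mcm7* read 8.81, 8.86 and 9.01 in K+-free medium, 9.87, 9.93 and 10.03 in ouabain and 9.75, 9.75 and 9.75 in control. It fell 1.81-fold in K+-free medium (adjusted p = 7.08e-07), while in ouabain all arrays lay above control by 0.20, which missed the fold limit (adjusted p = 0.0276). *Mcm2* read 10.10, 10.14 and 10.10 in K+-free medium, 10.44, 10.71 and 10.53 in ouabain and 10.05, 10.06 and 10.07 in control. It rose 1.42-fold in ouabain (adjusted p = 7.74e-05) and differed by 0.05 in K+-free medium. *Mcm6* rose 1.27-fold in ouabain (adjusted p = 0.000676), a call lost after centring on *B2m* (0.20), with 0.17 in K+-free medium. *Mcm5* passed neither, at -0.15 in K+-free medium and 0.16 in ouabain. Repeated quantile normalization gave higher calls for *Mcm6* in K+-free medium (0.32) and *Mcm5* in ouabain (0.28), and centring on *B2m* a lower call for *Mcm5* in K+-free medium (-0.31).

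Genes of origin firing were lower or did not pass, and none rose. In K+-free medium 4 of the 6 fell (66.7%) and in ouabain 1 did (16.7%). Of the 14324 genes, 24% and 22.7% fell, so the share in ouabain was not above that of all genes. *Cdc45*, which joins the MCM ring to make it an active helicase, read 6.99, 6.95 and 6.94 in K+-free medium, 7.64, 7.79 and 7.83 in ouabain and 7.97, 7.94 and 7.96 in control. It fell 2.0-fold in K+-free medium (adjusted p = 8.94e-08). In ouabain all arrays lay below control by a smaller gap, 0.20, under the fold limit (adjusted p = 0.0135). This change of *Cdc45* in ouabain moved with the scaling: it was -0.36 and called lower after centring on *B2m* (adjusted p = 0.000448), and 0.005 after repeated quantile normalization (adjusted p = 0.957). *Mcm10*, a factor for helicase activation, read 8.15, 8.07 and 7.93 in K+-free medium, 7.73, 7.81 and 7.72 in ouabain and 8.36, 8.31 and 8.29 in control. It fell 1.21-fold in K+-free medium and 1.49-fold in ouabain (adjusted p = 0.00435 and 1.94e-05), the only firing gene lower in ouabain than in K+-free medium. *Gins2*, a GINS subunit, read 6.40, 6.65 and 6.24 in K+-free medium, 6.74, 6.97 and 6.83 in ouabain and 6.90, 6.90 and 6.83 in control, and was above the array median on 5 of the 9 arrays. *Gins1* read 7.19, 7.22 and 7.29 in K+-free medium, 7.53, 7.51 and 7.51 in ouabain and 7.48, 7.69 and 7.41 in control. In K+-free medium *Gins2* fell 1.36-fold (adjusted p = 0.00291) and *Gins1* 1.23-fold (adjusted p = 0.00562), and in ouabain both overlapped with control. *Gins3* and *Cdc7*, the kinase that phosphorylates MCM proteins, were at -0.26 and -0.16 in K+-free medium and at 0.07 and -0.07 in ouabain, with no call. Several of these calls are narrow: repeated quantile normalization left *Mcm10* at -0.08 and *Gins1* at -0.14 in K+-free medium, without a call. *Mcm10* lost the call there without the 1st control array (-0.25) or the 3rd of K+-free medium (-0.21), and *Gins1* without the 2nd control array (-0.21), while *Gins3* gained one without the 3rd control array (-0.29) or the 1st of K+-free medium (-0.34). Centring on *B2m* gave *Gins3* (-0.41) and *Cdc7* (-0.32) lower calls in K+-free medium.

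Of the 14 polymerase, clamp and fork genes, 11 fell and 2 rose in K+-free medium (78.6% and 14.3%). In ouabain 6 fell and 3 rose (42.9% and 21.4%). Of the 14324 genes, 24% fell and 17.8% rose in K+-free medium, and 22.7% fell and 17.5% rose in ouabain. The shares of this group that rose were thus near those of all genes. *Pold2*, the accessory subunit of polymerase delta, read 8.19, 7.98 and 7.97 in K+-free medium, 8.76, 8.90 and 8.66 in ouabain and 9.80, 9.92 and 9.72 in control. It fell 3.40-fold in K+-free medium and 2.06-fold in ouabain (adjusted p = 2.16e-08 and 1.35e-06), with the 3 groups apart. *Pold1*, the catalytic subunit of the same polymerase, read 6.76, 6.71 and 6.73 in K+-free medium, 6.93, 6.97 and 6.99 in ouabain and 7.87, 7.87 and 7.72 in control. It fell 2.13-fold in K+-free medium and 1.81-fold in ouabain (adjusted p = 3.53e-08 and 2.43e-07), to about the array median, which it exceeded on 7 arrays. *Prim1*, the catalytic subunit of the primase that starts each DNA strand, read 9.87, 9.59 and 9.92 in K+-free medium, 10.19, 10.39 and 10.37 in ouabain and 11.22, 11.30 and 11.30 in control. Its fall was 2.79-fold in K+-free medium and 1.94-fold in ouabain (adjusted p = 1.12e-07 and 4.03e-06), again with no overlap among the groups. *Rfc2*, a subunit of the clamp loader, read 8.0, 8.04 and 8.09 in K+-free medium, 7.65, 7.57 and 7.65 in ouabain and 8.85, 8.78 and 8.91 in control. It fell 1.74-fold in K+-free medium and 2.33-fold in ouabain (adjusted p = 3.19e-07 and 1.85e-08), more in ouabain.

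The clamp itself and the nuclease it recruits moved the other way. *Pcna*, the sliding clamp that the loader places on DNA, read 12.03, 11.92 and 12.11 in K+-free medium, 12.34, 12.23 and 12.40 in ouabain and 11.24, 11.29 and 11.27 in control. It rose 1.69-fold in K+-free medium and 2.08-fold in ouabain (adjusted p = 1.9e-06 and 1.63e-07), while 4 of the 4 measured small loader subunits fell in K+-free medium (*Rfc2*, *Rfc3*, *Rfc4*, *Rfc5*) and 3 of them in ouabain. *Fen1*, the flap endonuclease of Okazaki fragments, read 8.37, 8.24 and 8.22 in K+-free medium, 8.35, 8.41 and 8.24 in ouabain and 7.69, 7.62 and 7.60 in control. It rose 1.55-fold in K+-free medium and 1.62-fold in ouabain (adjusted p = 7.57e-06 and 4.05e-06). *Rfc3* and *Rfc4* dropped by 0.55 and 0.81 log2 units in K+-free medium and by 0.44 and 0.77 in ouabain. *Pola1*, the catalytic subunit of polymerase alpha, rose 1.24-fold in ouabain (adjusted p = 0.00027) with 0.03 in K+-free medium, and the rise lost its call after centring on *B2m* (0.16). *Pole*, *Rfc5*, *Prim2*, *Rpa1* and *Rpa2*, which encode the catalytic subunit of polymerase epsilon, a loader subunit, the large primase subunit and a pair of subunits of the single-strand binding protein, fell in K+-free medium without a call in ouabain, by 0.49, 0.44, 0.29, 0.29 and 0.41. Of these 5, repeated quantile normalization left only *Pole* called, with *Rfc5* at -0.24, *Prim2* at -0.13, *Rpa1* at -0.18 and *Rpa2* at -0.28. *Prim2* also lost its call without the 2nd array of K+-free medium (-0.21), and *Rpa1* without the 2nd control array (-0.26). In ouabain, centring on *B2m* gave lower calls for *Pole* (-0.31), *Rfc5* (-0.36) and *Prim2* (-0.41), repeated quantile normalization gave a higher call for *Rpa2* (0.29, adjusted p = 0.0444), and *Prim2* was also called without the 3rd control or the 3rd ouabain array (-0.28 each).

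No gene of nucleotide supply changed by more than 0.27 on the log2 scale in either treatment. *Tyms*, thymidylate synthase, read 10.65, 10.50 and 10.67 in K+-free medium, 10.78, 10.81 and 10.89 in ouabain and 10.88, 10.90 and 10.86 in control. Its fall of 1.21-fold in K+-free medium was the single call of the 4 genes (adjusted p = 0.0025), and it was lost without the 2nd array of K+-free medium (-0.22). *Rrm2*, the small subunit of ribonucleotide reductase, read 11.50, 11.57 and 11.55 in K+-free medium, 11.63, 11.64 and 11.68 in ouabain and 11.44, 11.41 and 11.45 in control. All its treated arrays were above control, yet by 0.10 in K+-free medium and 0.22 in ouabain, under the fold limit. *Tk1*, thymidine kinase, read 8.40, 8.26 and 8.35 in K+-free medium, 8.40, 8.38 and 8.44 in ouabain and 8.49, 8.40 and 8.45 in control. *Rrm1*, the large reductase subunit, read 6.15, 6.16 and 6.01 in K+-free medium, 6.19, 6.24 and 6.11 in ouabain and 6.22, 6.06 and 6.07 in control. *Tk1* arrays of K+-free medium lay just below control without passing the test (-0.11, adjusted p = 0.122) and were called lower after centring on *B2m* (-0.27), while *Tk1* arrays of ouabain and *Rrm1* arrays of both treatments overlapped with control, and *Rrm1* was below the array median on all 9 arrays.

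**Figure D3:**
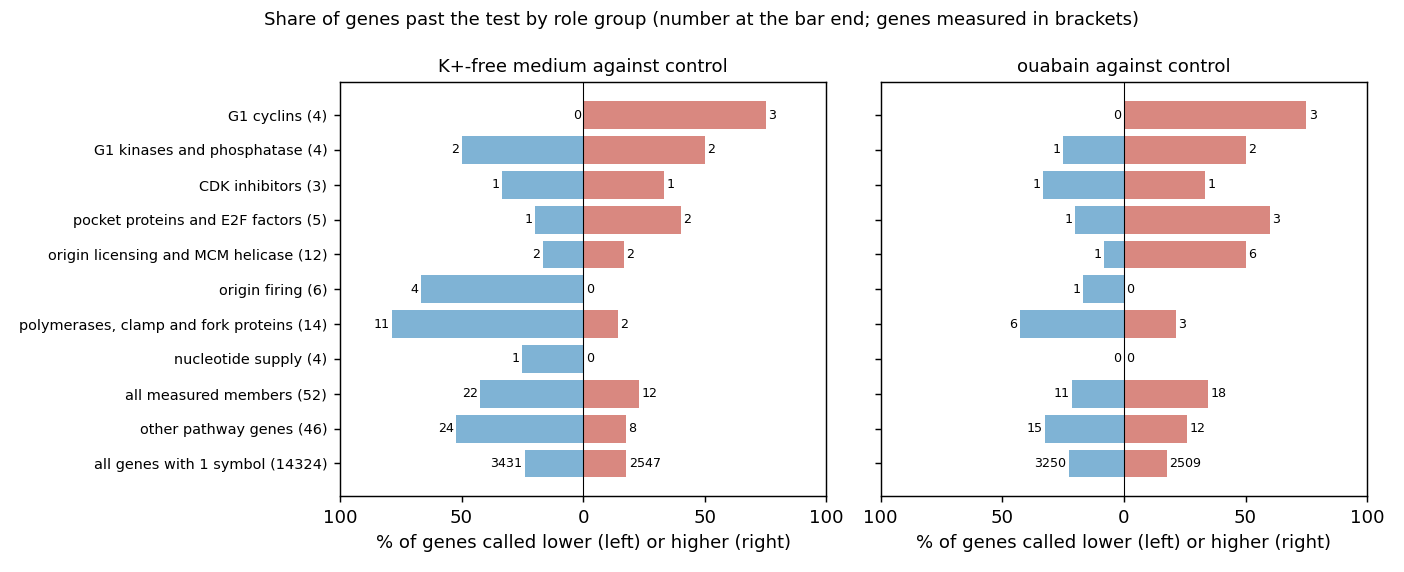
Share of measured genes called lower (bars to the left) or higher (bars to the right) against control, in % of each role group, in K+-free medium (left panel) and ouabain (right panel), with the number of genes at the bar end. In K+-free medium 11 of 14 polymerase, clamp and fork genes and 4 of 6 firing genes were lower, while 3 of 4 G1 cyclins were higher in both panels; the lowest bars give all 14324 genes.

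The shares by role set the groups side by side. G1 cyclins had no fall in either treatment and firing genes no rise, on 4 and 6 genes. Licensing and MCM genes had 2 rises and 2 falls of 12 in K+-free medium and 6 rises and 1 fall in ouabain. Among the 14324 genes, 17.8% rose and 24.0% fell in K+-free medium, and 17.5% rose and 22.7% fell in ouabain.

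A direct comparison of the treatments asked where loss of extracellular K+ and the pump blocker differ. The control arrays do not enter its differences. They do share in the estimate of spread behind its intervals, p-values and calls. Signals in K+-free medium were higher than in ouabain for 6 of the 52 genes and lower for 20 (11.5% and 38.5%). Of all probe sets, 8.45% were higher and 7.97% lower. Of the 14324 genes, 10.9% were higher and 10.7% lower, so the share of the 52 that was higher was near that of all genes. The median difference was -0.17, beside -0.01 over all 14324 genes. The arrays of the 2 treatments did not overlap for 36 genes (69.2%, all probe sets 32.4%, the 14324 genes 40%), of which 29 were lower in K+-free medium.

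**Figure D4:**
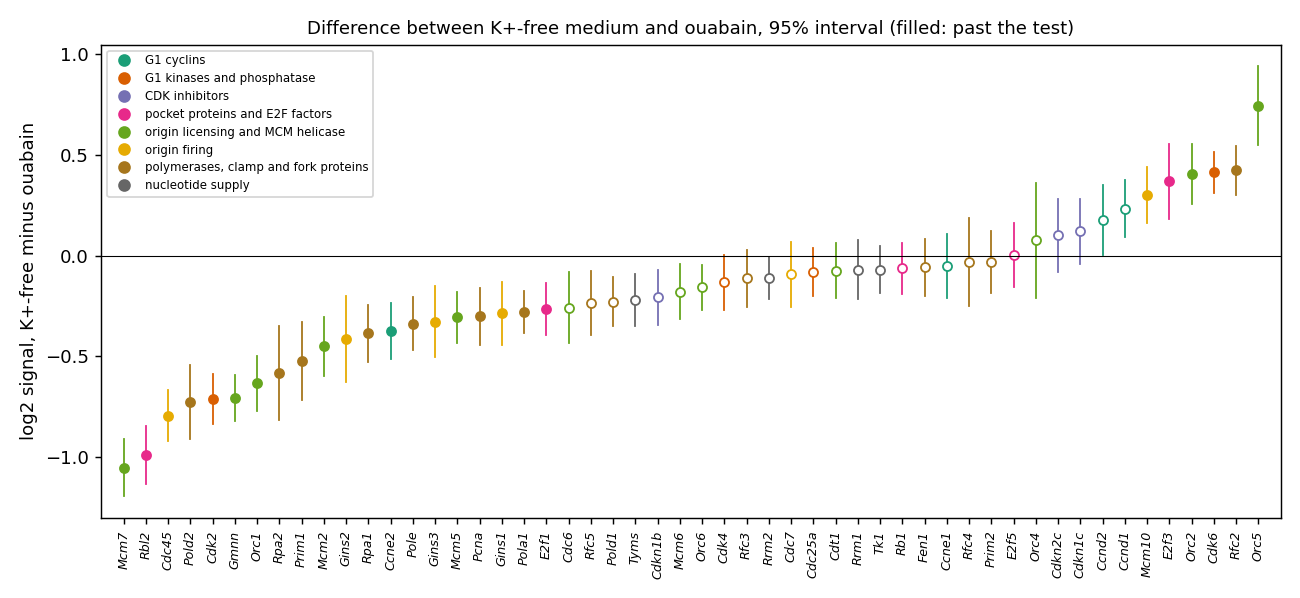
Difference in log2 signal between K+-free medium and ouabain for the 52 genes, in rising order, with 95% intervals, colours for the role and filled points for genes past the test. *Mcm7* (-1.05) and *Rbl2* (-0.99) are at the low end and *Orc5* (0.74) at the high end.

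The ordered plot of differences between treatments has replication genes at both ends. *Mcm7* was 2.07-fold lower in K+-free medium than in ouabain (95% interval -1.19 to -0.91 on the log2 scale, adjusted p = 9.29e-07) and *Rbl2* 1.99-fold lower (-1.13 to -0.84, adjusted p = 1.73e-06). *Cdc45* was 1.73-fold, *Pold2* 1.65-fold, *Cdk2* 1.64-fold, *Gmnn* 1.63-fold and *Orc1* 1.55-fold lower in K+-free medium. The per-array values given above show no overlap between the treatments for any of these 7. Of the 6 genes higher in K+-free medium, *Orc5* differed by 1.67-fold (adjusted p = 0.00011), *Rfc2* by 1.34-fold and *Cdk6* by 1.33-fold, followed by *Orc2*, *E2f3* and *Mcm10* with differences of 0.40, 0.37 and 0.30.

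The genes that fell in both treatments differed in which fall was deeper. Of the 11, *Rbl2*, *Pold2* and *Prim1* were lower in K+-free medium, *Orc5*, *Mcm10* and *Rfc2* were lower in ouabain, and 5 had no call between the treatments. Among the 11 that rose in both, *Ccne2* and *Pcna* were higher in ouabain (-0.37 and -0.30 for K+-free medium minus ouabain) and *E2f3* was higher in K+-free medium. *Cdc6* was 0.26 lower in K+-free medium with adjusted p = 0.0404 and a fold just under the limit, and it became a call without the 3rd array of ouabain (-0.34). The intervals of *E2f5* (-0.15 to 0.16), *Fen1* (-0.20 to 0.08), *Ccne1* (-0.21 to 0.11) and *Rfc4* (-0.25 to 0.18) bound how far the treatments could differ for these genes. Other small differences hung on single arrays. That of *E2f1* (-0.26) was not called without the 2nd array of ouabain (-0.22) or the 1st or 2nd of K+-free medium (-0.25 each). Without the 1st array of K+-free medium *Mcm10* (0.25) and *Gins1* (-0.26) were not called, without the 2nd *Pcna* (-0.25) and *Gins3* (-0.26) were not, and without the 3rd *Mcm5* (-0.26) was not. Some calls appeared in the same way: *Ccnd1* without the 2nd array of ouabain (0.28), and *Rfc5* without the 1st array of ouabain (-0.27) or of K+-free medium (-0.28).

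Other genes of the same pathway, from a list of 62 that the 58 do not include, were counted in the same way. Both lists were chosen with earlier results of these data known. The counts below therefore describe this list and are not independent evidence beside those of the 52 genes. Of the 46 measured, 8 rose and 24 fell in K+-free medium (17.4% and 52.2%), with a median of -0.33. In ouabain 12 rose and 15 fell (26.1% and 32.6%), with a median of -0.03. Of the 14324 genes, 17.8% rose and 24% fell in K+-free medium, and 17.5% rose and 22.7% fell in ouabain. The share of the 46 that rose in K+-free medium was thus near that of all genes. The 31 replication genes among the 46 had 2 rises and 21 falls in K+-free medium (6.45% and 67.7%). In ouabain they had 6 rises and 12 falls (19.4% and 38.7%). The 15 regulators had 6 rises and 3 falls in each treatment (40% and 20%). The 6 with the widest changes were a phosphatase, subunits of the origin and clamp loading complexes, a histone chaperone and a pair of CDK inhibitors.

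*Cdc25b*, a phosphatase that activates cyclin-dependent kinases, read 7.70, 7.58 and 7.78 in K+-free medium, 8.80, 8.93 and 8.79 in ouabain and 9.91, 9.96 and 9.80 in control. It fell 4.6-fold in K+-free medium and 2.07-fold in ouabain (adjusted p = 1.52e-09 and 3.23e-07), and no other of the 46 genes fell as far in K+-free medium. *Orc3*, which binds Orc2 and Orc5 in the origin recognition complex, read 8.01, 7.65 and 7.95 in K+-free medium, 7.52, 7.40 and 7.41 in ouabain and 9.41, 9.37 and 9.32 in control. Like *Orc5* it fell in both treatments and was lower in ouabain (falls of 2.82-fold in K+-free medium and 3.79-fold in ouabain, adjusted p = 8.86e-08 and 1.94e-08). *Rfc1*, the large clamp loader subunit, read 9.0, 8.94 and 8.91 in K+-free medium, 8.68, 8.62 and 8.73 in ouabain and 9.97, 9.91 and 9.96 in control. It fell 1.99-fold in K+-free medium and 2.40-fold in ouabain (adjusted p = 4.75e-08 and 1.21e-08), as its partner *Rfc2* did.

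*Asf1b*, a histone chaperone of replicating cells, read 7.73, 7.73 and 7.74 in K+-free medium, 7.85, 7.93 and 8.02 in ouabain and 9.11, 9.18 and 9.07 in control. It fell 2.61-fold in K+-free medium and 2.27-fold in ouabain (adjusted p = 1.02e-08 and 3.59e-08). *Cdkn1a*, p21, an inhibitor of cyclin-dependent kinases that also binds PCNA, read 13.21, 13.27 and 13.16 in K+-free medium, 13.08, 13.18 and 12.95 in ouabain and 11.99, 12.02 and 11.97 in control. It rose 2.33-fold in K+-free medium and 2.11-fold in ouabain (adjusted p = 4.91e-08 and 1.51e-07), in the same direction as *Cdkn1b*. *Cdkn2b*, p15, an inhibitor of Cdk4 and Cdk6, read 9.54, 9.76 and 9.43 in K+-free medium, 8.65, 8.80 and 8.59 in ouabain and 8.26, 8.46 and 8.06 in control. It rose 2.49-fold in K+-free medium (adjusted p = 1.56e-06) and 1.34-fold in ouabain (adjusted p = 0.00861), and the ouabain rise lost its call after centring on *B2m* (0.27).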

How the data were processed

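Total RNA of 9 RASMC cultures was measured on Affymetrix Rat Gene ST arrays. The authors normalised the data across arrays and deposited a log2 signal for each of 27342 probe sets. The submitters' processing notes name RMA and Partek without versions, and the study's methods also name MAS5 and GeneSpring for array data, so log2 values between 4.22 and 14.55 were taken as given, without further scaling. Such normalisation can hide a change in total RNA per cell. Groups came from the sample labels, and the methods describe 3 independent experiments.

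Probe sets were named from the platform annotation (15097 with 1 symbol, 323 with several, 11922 with none). R 4.3.3 ran limma 3.58.1 to fit a mean per medium to the 9 arrays. Variances were moderated by eBayes (prior SD 0.0815 with 4.59 degrees of freedom), and p-values were adjusted by Benjamini-Hochberg over all probe sets. The code was tested on simulated data. The genes and the list of other pathway genes were chosen with earlier results of these data known. Values of every array were printed for up to 4 genes per role with the largest change, up to 6 with the largest difference between treatments, *Orc1*, *Gmnn*, *Mcm2*, *Pcna* and *Fen1*, which were added after their values were seen, and up to 6 other pathway genes. As alternatives, arrays were quantile normalized once more or centred on their median or on *B2m*, and fits were repeated without the dimmest probe sets or those lacking a single symbol, with a replicate block, 6 arrays per comparison, trend and robust moderation, other fold limits, averaged probe sets and leaving out each array. Promoters were searched and plots drawn in Python 3.11.15 with pandas 2.3.3 and matplotlib 3.10.9.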

Additional observations from a re-analysis of the deposited data

Results flagged for a closer look

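*Cdk2* moved in opposite directions in the 2 treatments: its mean dropped by 0.38 log2 units in K+-free medium and was 0.33 higher in ouabain, each against control. The difference between K+-free medium and ouabain, -0.71, itself passed the limma test (adjusted p = 5.92e-06), and all 3 arrays of K+-free medium lay below and all 3 of ouabain above all 3 control arrays. After centring on *B2m*, the change of *Cdk2* in ouabain was 0.17 and no longer called.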

How the results depend on the processing

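The counts of genes called rose or fell by under 1.5 times, and medians moved by less than the spread between arrays (0.0402), under every alternative except those named here. A fold limit of 1.5 left 9 genes higher in ouabain, 11 lower in K+-free medium, and, between the treatments, 7 lower and 1 (*Orc5*) higher in K+-free medium. Repeated quantile normalization gave median changes of the genes of -0.021 in K+-free medium and 0.16 in ouabain, and centring on *B2m* gave -0.31 and -0.084. Both also shifted the median of all probe sets, 0.06 in K+-free medium and 0.07 in ouabain as deposited, to 0.015 and 0.021 with repeated quantiles and to -0.10 and -0.08 with *B2m*. Leaving out each array in turn gave 12 to 13 genes higher and 20 to 23 lower in K+-free medium with medians of -0.20 to -0.13 (-0.20 without its 1st array), 18 to 19 and 11 to 13 in ouabain with medians of 0.04 to 0.10, and, for K+-free medium against ouabain, 5 to 7 higher and 17 to 21 lower with medians of -0.20 to -0.16. The labels do not say whether arrays of the same number come from the same experiment, so the main fit did not use the numbers as pairs. Same-numbered arrays of different media deviated together in 4 of 9 pairs (r above 0.1, range -0.05 to 0.31). Differently numbered arrays did so in 1 of 18 (range -0.28 to 0.16), so pairing by number remains possible. With the replicate block 13 genes rose and 22 fell in K+-free medium and 18 and 11 in ouabain, with 6 and 20 between the treatments. Of 174 single-gene results, 41 changed side of the threshold under some alternative, with the other fold limits left out of this count. None that was called reversed its sign. The cause of these shifts was not tested. No background signal was used here, so dim probe sets such as those of *Rrm1* and *Cdkn1c* have no detection call.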

Other observations

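Genes of the wider pathway also differed between the treatments. *Mybl2*, a transcription factor of cycling cells, dropped by 0.97 log2 units in K+-free medium and was at 0.23 in ouabain, without a call there. *Wdhd1*, which ties the polymerases to the helicase, fell by 0.88 in K+-free medium and was at 0.02 in ouabain. *Uhrf1*, a partner of the maintenance DNA methyltransferase, fell by 0.58 in K+-free medium and was at 0.13 in ouabain. *Donson* and *Pclaf* fell by 0.37 and 0.34 in K+-free medium and rose by 0.35 and 0.41 in ouabain. All 5 were lower in K+-free medium than in ouabain by limma. *Skp2*, *Myc* and *Dck* rose in both treatments, by 0.64, 0.85 and 0.74 in K+-free medium and by 0.58, 0.60 and 0.77 in ouabain. All 8 were picked after their values were seen and were not run under the alternatives.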
